A study of Rattus norvegicus with 25 samples.

Results

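Marker genes of striatal interneurons, 10 in number, were followed through a rat model of Parkinson's disease: Chat, Slc5a7, Slc18a3, Lhx8 and Zic4 for cholinergic interneurons, and Pvalb, Sst, Npy, Nos1 and Pthlh for GABA interneurons. They were taken by symbol from a table of read counts for 28909 gene names. Of the 10 names, 9 were in the table and 8 had enough reads to be tested among 14142 genes. Npy was listed at 0 in every library, and Pthlh was not analysed here. The 25 libraries came from the striatum on the lesioned side of female Sprague Dawley rats given 6-OHDA, a toxin that destroys dopamine neurons. Every animal received levodopa at 6 mg/kg QD, which the series title gives as levodopa/benserazide. One arm had levodopa alone (n = 5). The other arms added trapidil, known as a platelet-derived growth factor antagonist and phosphodiesterase inhibitor, at 7.5 mg/kg BID (n = 10) or 15 mg/kg BID (n = 10). Dosing lasted 14 days and tissue was taken on day 15. All animals carried the lesion and levodopa, so no group shows the intact or the untreated striatum. The ages of the animals are not given in the sources used here.

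Most striatal neurons are GABA-releasing spiny projection neurons, and interneurons are a small minority. Cholinergic interneurons are large, tonically active cells whose acetylcholine release is opposed by dopamine, and they are a known site of change under chronic levodopa. Fast-spiking GABA interneurons carry parvalbumin, and another GABA class makes somatostatin, neuropeptide Y and nitric oxide. In bulk tissue fewer cells of a type and less RNA per cell cannot be told apart.

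Promoter sequences are shown for Sst and Nos1, which mark the same GABA class and share a cyclic AMP response element in the RefSeq window, and for Pvalb, the member with the lowest ratio to levodopa at 15 mg/kg. RefSeq (GRCr8 build) gave promoters for 9 of the 10 symbols, 10 promoters in all. Each stretch below runs 5′ to 3′ over 100 bases before and 20 bases after the annotated start, and capitals mark the element.
Sst (chr11:90461446-90461565, plus strand): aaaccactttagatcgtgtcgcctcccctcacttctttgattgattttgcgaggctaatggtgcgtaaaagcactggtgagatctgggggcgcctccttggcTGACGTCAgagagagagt
Nos1 (chr12:44371818-44371937, minus strand): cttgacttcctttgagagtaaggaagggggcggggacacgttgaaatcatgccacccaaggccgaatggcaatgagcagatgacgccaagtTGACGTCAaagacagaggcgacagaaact
Pvalb (chr7:111666270-111666389, minus strand): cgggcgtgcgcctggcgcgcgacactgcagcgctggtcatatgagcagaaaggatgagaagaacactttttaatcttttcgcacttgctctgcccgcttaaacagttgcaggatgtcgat
The motif searched was TGACGTCA, which reads the same on both strands. Counted from the annotated start, the motif begins at base 3 after it in Sst and 9 bases before it in Nos1. Where transcription begins in these libraries was not tested. Over windows of 300 bases, 2 of the 10 member promoters held it, against 612 of 33469 promoters of all genes (1.83%). A match describes the letters only.

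Total counts per library ran from 10838513 to 20532290. Levels are given as CPM, the depth-scaled count unit of edgeR, with library sizes scaled by TMM. Spiny projection neuron markers were abundant in every library, with a summed level of 8874 to 15557 CPM over 9 of 9 genes. Levodopa replicate 2 stood apart: it had the lowest sum of these markers (8874 CPM). It also had the highest endothelial sum (334 CPM over the 3 of 5 endothelial genes with reads, against 173 to 185 CPM in the other 4 levodopa libraries). Its sum for extra-striatal neuron markers (8 of 9 with reads) was 74.6 CPM, and the highest in the trapidil arms was 34.5 CPM. One gene of that list, Zic1, also stands in the list of other cholinergic genes used below (16.3 CPM in levodopa replicate 2, arm medians 10.5 to 10.8 CPM). The 7.5 mg/kg replicate 1 had the lowest total and the highest cortical sum, 55.4 CPM. Cortical sums were also raised in levodopa replicate 5 (42.8 CPM) and the 7.5 mg/kg replicate 6 (33.9 CPM), and every other library was at 6.91 CPM or below. Results for the members that rest on levodopa replicate 2 or the 7.5 mg/kg replicate 1 are given with and without them.

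Across arms, none of the 8 tested markers passed the test. With edgeR, 0 of 8 were called at 7.5 mg/kg against levodopa, where 0.0283% of all genes were called. The same held at 15 mg/kg, where 1.31% of all genes were called, and between the doses, where 0.0283% were. DESeq2 and limma-voom also called 0 of 8 in these comparisons. At an unadjusted p below 0.05 there were 2 lower members at 7.5 mg/kg (all 14142 genes: 939 lower, 11.7% in either direction). At 15 mg/kg 2 members were lower (all genes: 1589 lower, 19.5% in either direction). Between the doses 1 member was higher at 15 mg/kg (all genes: 211 higher, 3.63% in either direction). The median log2 fold change of the 8 was -0.21 at 7.5 mg/kg and -0.10 at 15 mg/kg, beside 0.0037 and 0.00068 over all genes. The CPM ranges of the arms overlapped for all 8 members in each comparison, where ranges were apart for 0.0919% of all genes at 7.5 mg/kg, 0.707% at 15 mg/kg and 0% between the doses. Both doses were set against the same 5 levodopa libraries.

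**Figure D1:**
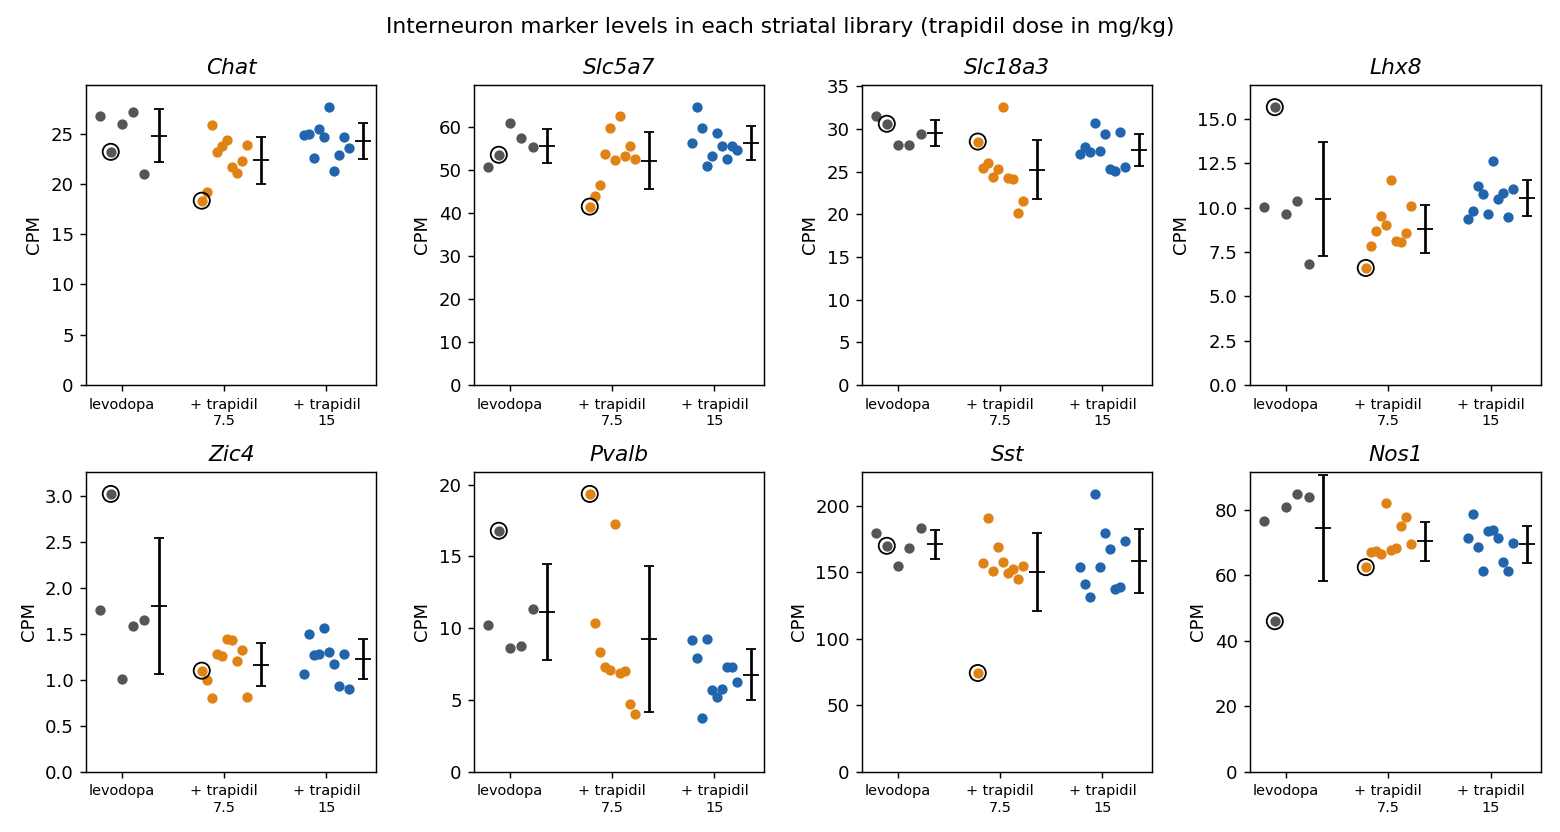
Level of each tested marker in every library (CPM, linear axes from 0) by arm. Points are libraries, crossed bars are the mean ± SD, and open circles mark levodopa replicate 2 and the 7.5 mg/kg replicate 1. The arms overlap in every panel, and levodopa replicate 2 is the highest point for Zic4 and Lhx8 and the lowest for Nos1.

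The choline handling genes Chat, Slc5a7 and Slc18a3 were not called in any comparison with edgeR. Chat encodes choline acetyltransferase, which makes acetylcholine. It stood at 26.7, 23.2, 26.0, 27.2 and 20.98 CPM in levodopa replicates 1 to 5. At 7.5 mg/kg it ran from 18.3 CPM through a median of 22.7 to 25.9 CPM, and at 15 mg/kg from 21.3 CPM through 24.7 to 27.6 CPM. The arms overlapped over most of their range, with the 7.5 mg/kg replicate 1 lowest. The log2 fold change against levodopa was -0.15 ± 0.08 (SE) at 7.5 mg/kg (edgeR adjusted p = 0.447) and -0.03 ± 0.08 at 15 mg/kg (adjusted p = 0.857). At 15 mg/kg the 95% interval of the log2 difference ran from -0.19 to 0.12, so larger differences in either direction lay outside it.

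Slc5a7 encodes the high-affinity choline transporter, which returns choline to the terminal. Its levodopa values were 50.7, 53.5, 60.9, 57.4 and 55.2 CPM. The trapidil arms ran from 41.4 CPM (median 52.8) to 62.5 CPM at 7.5 mg/kg and from 51.0 CPM (median 55.5) to 64.5 CPM at 15 mg/kg. The 7.5 mg/kg replicate 1 was again the lowest library, and the highest was in the 15 mg/kg arm. Log2 fold changes were -0.09 ± 0.08 (adjusted p = 0.652, edgeR) and 0.01 ± 0.08 (adjusted p = 0.943, edgeR), with a 95% interval from -0.14 to 0.17 at 15 mg/kg.

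Slc18a3 encodes the vesicular acetylcholine transporter, which loads the transmitter into vesicles. It was the tightest member in the levodopa arm, at 31.5, 30.6, 28.1, 28.1 and 29.4 CPM, a coefficient of variation of 5.10%. At 7.5 mg/kg it ran from 20.1 CPM (median 24.8) to 32.5 CPM, and 8 of the 10 libraries lay below the lowest levodopa animal. The highest library of all, replicate 6 at 32.5 CPM, was in the same arm. The log2 fold change was -0.23 ± 0.08 (unadjusted p = 0.00642, adjusted p = 0.287, edgeR), with 9 of 10 libraries under the mean of the levodopa arm. Among the alternatives the lowest adjusted p at this dose was 0.0621, with limma-voom. At 15 mg/kg the range was 25.1 to 30.7 CPM with a median of 27.3 CPM, 7 of 10 libraries lay below the lowest levodopa animal, and the difference was -0.10 ± 0.08 (adjusted p = 0.493, edgeR). In RefSeq's GRCr8 annotation Slc18a3 lies inside the Chat gene on the same strand. How the counting divided reads where they overlap is not given in the sources used here, so both levels are uncertain to that extent.

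Lhx8 and Zic4 are transcription factor genes, Lhx8 being needed for the cholinergic fate. Lhx8 stood at 10.0, 15.7, 9.67, 10.4 and 6.80 CPM in levodopa replicates 1 to 5. The trapidil arms held 6.60 to 11.6 CPM (median 8.61) at 7.5 mg/kg and 9.37 to 12.7 CPM (median 10.6) at 15 mg/kg. Levodopa replicate 2 lay above every trapidil library. The log2 fold changes were -0.25 ± 0.13 (adjusted p = 0.456, edgeR) and 0.01 ± 0.13 (adjusted p = 0.987, edgeR). Without levodopa replicate 2 they were -0.06 and 0.19. Between the doses Lhx8 was higher at 15 mg/kg by 0.26 ± 0.11, the lowest unadjusted p of the members there (p = 0.0244), yet the adjusted p was 0.999 by edgeR.

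Zic4 had few reads, 12 to 49 per library. Levodopa values were 1.76, 3.02, 1.01, 1.58 and 1.65 CPM. Trapidil animals ran from 0.798 to 1.44 CPM (median 1.23) at 7.5 mg/kg and from 0.902 to 1.57 CPM (median 1.28) at 15 mg/kg. Levodopa replicate 2 was the highest library and levodopa replicate 3 lay within the trapidil ranges. The log2 fold change was -0.63 ± 0.20 at 7.5 mg/kg (adjusted p = 0.272, edgeR) and -0.55 ± 0.20 at 15 mg/kg (adjusted p = 0.13, edgeR), with 10 of 10 libraries of each dose under the mean of the levodopa arm. That mean includes replicate 2, and levodopa replicates 3, 4 and 5 lay under it too. Without levodopa replicate 2 the log2 fold changes were -0.36 and -0.29. Set against the mean of both doses, Zic4 was at -0.59 ± 0.18 (adjusted p = 0.0965, edgeR), the nearest of the 8 to the threshold. In that comparison 0 of 8 members were called, beside 0.806% of all genes in either direction and 0.665% lower. Slc17a6, a vesicular glutamate transporter of thalamic and other extra-striatal neurons, was at 10.98 CPM in levodopa replicate 2 and at no more than 1.74 CPM in any trapidil library. Ngfr, a neurotrophin receptor of basal forebrain cholinergic neurons, was at 20.05 CPM there and at 14.0 CPM in the 7.5 mg/kg replicate 1, against medians of 4.59, 2.49 and 1.85 CPM in the levodopa, 7.5 and 15 mg/kg arms. Their part in the Zic4 and Lhx8 values was not tested beyond the fit with the extra-striatal score, in which Zic4 was at -0.42 and -0.35.

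**Figure D2:**
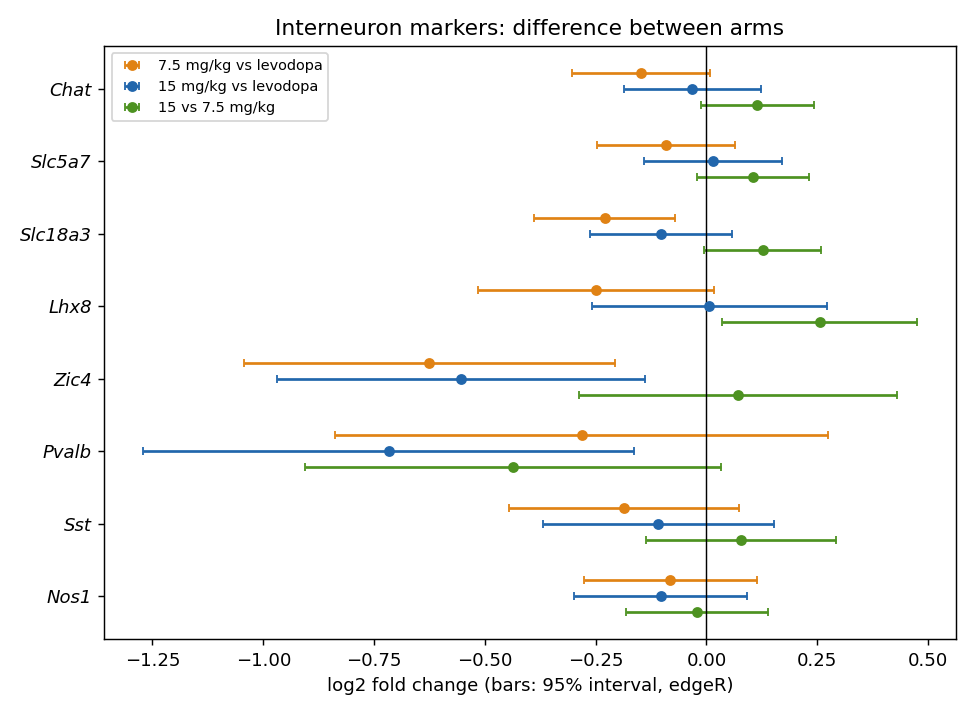
Log2 fold change of each tested marker (x axis) in 3 comparisons, with 95% intervals that are not adjusted for the number of genes. Intervals of Zic4 and Pvalb are the widest, and Chat, Slc5a7 and Slc18a3 lie within 0.23 of 0.

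Among GABA markers, Pvalb varied most. It encodes parvalbumin, the calcium buffer of fast-spiking interneurons. Levodopa values were 10.2, 16.8, 8.59, 8.76 and 11.3 CPM. At 7.5 mg/kg the range was 4.06 to 19.3 CPM with a median of 7.17 CPM and a coefficient of variation of 55.3%. Replicates 1 (19.3 CPM) and 6 (17.2 CPM) stood above the other 8, which lay at or below 10.4 CPM. At 15 mg/kg the range was 3.75 to 9.23 CPM with a median of 6.78 CPM, and 8 of 10 animals lay below the lowest levodopa animal. The log2 fold change was -0.28 ± 0.27 at 7.5 mg/kg (adjusted p = 0.699, edgeR) and -0.72 ± 0.27 at 15 mg/kg (95% interval -1.27 to -0.16, adjusted p = 0.141, edgeR; lower in 10 of 10 libraries). With only the arms compared in the fit, Pvalb was called at 15 mg/kg at the same value, -0.72 ± 0.19 (adjusted p = 0.0435, edgeR). Without levodopa replicate 2 it was -0.09 at 7.5 mg/kg and -0.52 at 15 mg/kg. In the other direction, Pvalb at 7.5 mg/kg was at -0.45 without the 7.5 mg/kg replicate 1 and at -0.44 without replicate 6. These are also the trapidil libraries with raised cortical sums. The cortical score and Pvalb had r = 0.594 over 25 libraries (permutation adjusted p = 0.0898; rho = 0.338, adjusted p = 0.575), 0.816 within the 7.5 mg/kg arm and 0.168 within the 15 mg/kg arm. The coefficient was 0.485 without the 2 libraries of most distant score, and with that score in the design Pvalb was at -0.47 at 15 mg/kg.

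Oligodendrocyte markers moved with Pvalb. The summed level of 8 such genes (8 of 8 with reads) was 10037 to 18330 CPM with levodopa, 6918 to 15173 CPM at 7.5 mg/kg and 6139 to 12941 CPM at 15 mg/kg. After subtraction of arm means, Pvalb and the oligodendrocyte score (the mean z-score of those genes) had Pearson r = 0.784 over 25 libraries (permutation adjusted p = 0.002 over 40 pairs of member and score) and Spearman rho = 0.742 (adjusted p = 0.0052). The coefficient was 0.719 without the 2 libraries farthest from the median score and 0.691 without levodopa replicate 2 and the 7.5 mg/kg replicate 1 (n = 23, adjusted p = 0.0332). Within the 7.5 and 15 mg/kg arms it was 0.862 and 0.731 (n = 10 each). No coefficient was taken within the levodopa arm. There replicate 2 was highest in both, while replicate 5 had the lowest score and Pvalb at 11.3 CPM. With the score in the design, Pvalb was at 0.12 ± 0.18 and 0.14 ± 0.22 at the lower and higher dose, on the other side of 0. The genes of the score themselves differed by arm, with 5 of 8 called lower at 15 mg/kg (1% of all genes). That fit therefore cannot tell arm and score apart.

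Sst encodes somatostatin, an inhibitory peptide. Its levodopa values were close together, at 179, 170, 155, 168 and 183 CPM. At 7.5 mg/kg it ran from 74.3 CPM (median 154) to 191 CPM and at 15 mg/kg from 131 CPM (median 154) to 209 CPM. One library, the 7.5 mg/kg replicate 1 at 74.3 CPM, lay far under the rest. Log2 fold changes were -0.19 ± 0.13 (adjusted p = 0.574, edgeR) and -0.11 ± 0.13 (adjusted p = 0.684, edgeR). Without the 7.5 mg/kg replicate 1 Sst was at -0.11 at that dose, and it was at -0.25 and -0.23 at the lower and higher dose once the cortical score entered the fit.

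Nos1 encodes neuronal nitric oxide synthase. In the levodopa arm it stood at 76.7, 46.0, 80.9, 84.9 and 84.0 CPM, replicate 2 being the lowest of all 25 libraries. The 7.5 mg/kg arm spanned 62.5 to 82.2 CPM (median 68.0) and the 15 mg/kg arm 61.4 to 78.8 CPM (median 70.7). The log2 fold changes were -0.08 ± 0.10 (adjusted p = 0.756, edgeR) and -0.10 ± 0.10 (adjusted p = 0.586, edgeR), and -0.21 and -0.23 without levodopa replicate 2. In the other direction, Nos1 was at -0.03 and -0.05 without levodopa replicate 4 or without levodopa replicate 5, and at -0.05 at 7.5 mg/kg without levodopa replicate 3. With the oligodendrocyte score in the design Nos1 was at -0.19 and -0.29. Without levodopa replicate 2 and the 7.5 mg/kg replicate 1, the edgeR adjusted p at 15 mg/kg was 0.0781.

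Npy, the neuropeptide Y gene of the Sst and Nos1 class, had 0 reads in 25 of 25 libraries. By counting error alone, 0 reads allow up to 0.146 to 0.277 CPM (3 counts per library total). Cldn5, a defining endothelial gene, was also listed at 0 in every library, although Flt1 of the same cells was at 56.6 to 152 CPM. Npy is therefore reported only as listed at 0.

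Between animals of an arm, 1 of 28 member pairs passed a permutation test by Pearson's r and 4 passed by Spearman's rho, each adjusted over all 28. Slc18a3 with Pvalb passed both (Pearson r = 0.751, adjusted p = 0.00588, Spearman rho = 0.627, adjusted p = 0.0182; 25 libraries, arm means subtracted). Its coefficient was 0.636 without the 2 libraries with the most distant Slc18a3, and 0.913 and 0.220 within the 7.5 and 15 mg/kg arms. By rho alone, Slc5a7 went opposite to Pvalb (rho = -0.632, permutation adjusted p = 0.0182; r = -0.517, adjusted p = 0.17) and with Nos1 (rho = 0.583, permutation adjusted p = 0.0182; r = 0.423, adjusted p = 0.0883). Pvalb and Nos1 went opposite ways (rho = -0.535, permutation adjusted p = 0.0411; r = -0.477, adjusted p = 0.0682). Without the 2 libraries farthest in the first gene of each pair, r was -0.350, 0.461 and -0.490. Without levodopa replicate 2 and the 7.5 mg/kg replicate 1, r was -0.330, 0.544 and -0.310 (permutation adjusted p = 0.442, 0.0938 and 0.442). Within the 7.5 mg/kg arm r was -0.581, 0.635 and -0.575, and within the 15 mg/kg arm -0.278, 0.665 and -0.249. Slc18a3 also followed the oligodendrocyte score (r = 0.648, permutation adjusted p = 0.0209; rho = 0.568, adjusted p = 0.0621). That pair was at 0.610 without levodopa replicate 2 and the 7.5 mg/kg replicate 1 (adjusted p = 0.088). Nos1 went the opposite way with the same score (r = -0.549, permutation adjusted p = 0.0209; rho = -0.558, adjusted p = 0.0621), and was at -0.479 without those 2 libraries (adjusted p = 0.323). Without the 2 libraries farthest from the median score these pairs were at 0.566 and -0.497. Within the 7.5 and 15 mg/kg arms Slc18a3 was at 0.810 and 0.388 and Nos1 at -0.811 and -0.206. Chat and Slc18a3, which share a locus, had r = 0.121 (permutation adjusted p = 0.719), and Sst and Nos1 of the same GABA class had r = 0.134 (permutation adjusted p = 0.564).

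**Figure D3:**
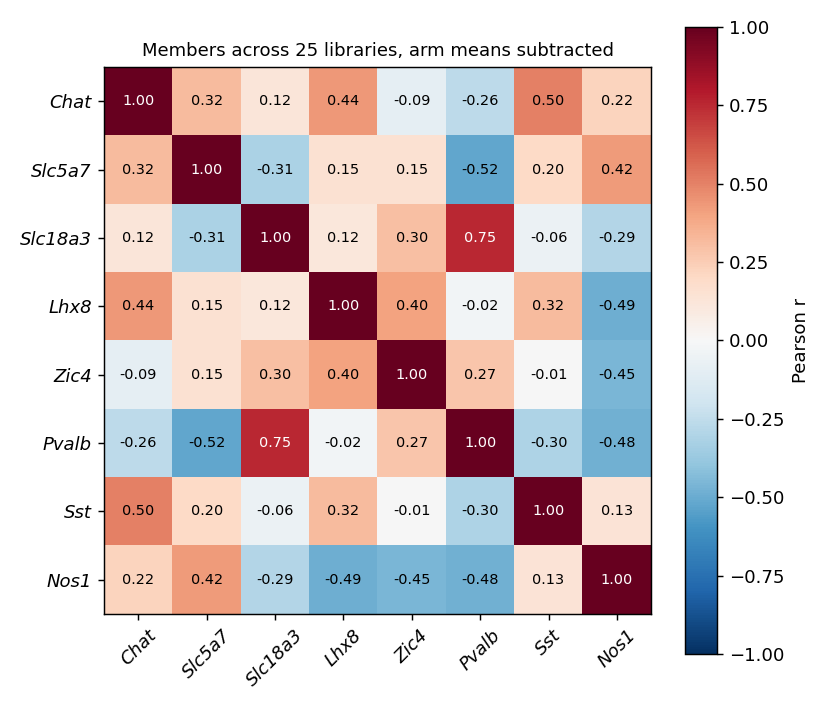
Pearson r between tested markers over 25 libraries after subtraction of arm means (log2 CPM, pseudocount 2). The strongest cell off the diagonal is Slc18a3 with Pvalb at 0.75, while Chat with Slc18a3 is at 0.12.

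**Figure D4:**
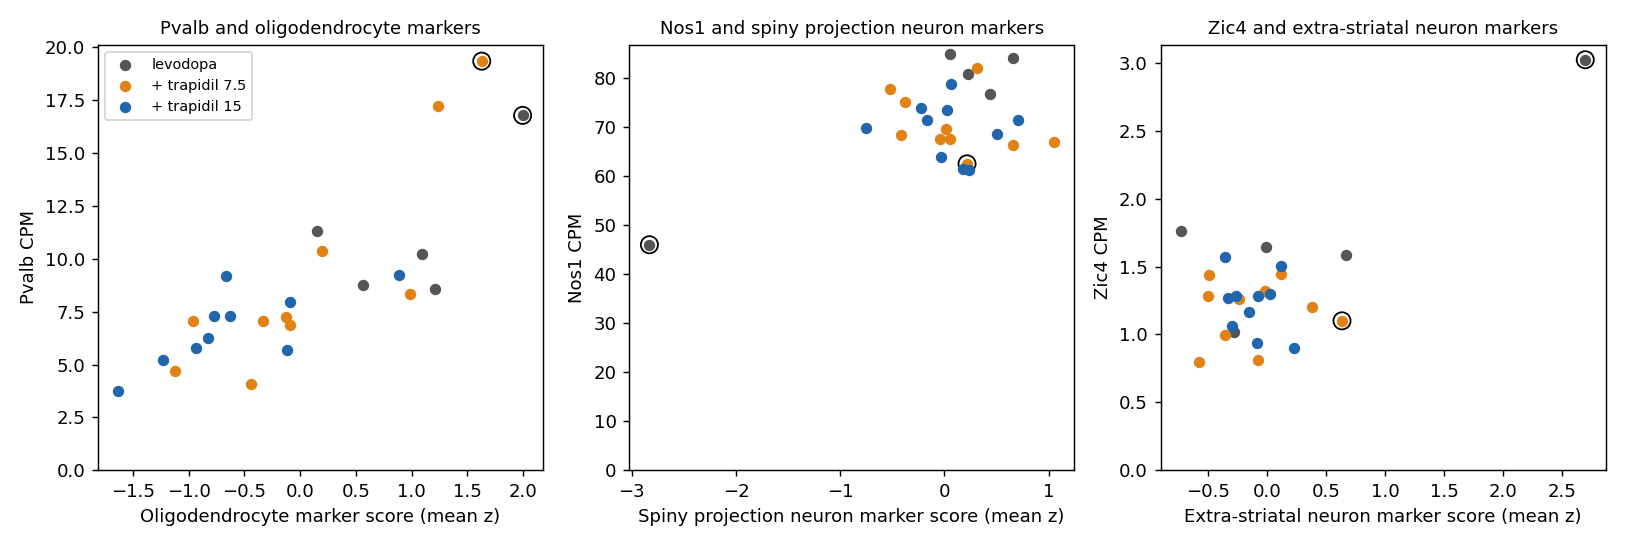
CPM of Pvalb, Nos1 and Zic4 (y axes from 0) against marker scores of other cell groups (mean z-score, x axes), 1 point per library, with levodopa replicate 2 and the 7.5 mg/kg replicate 1 circled. Pvalb climbs with the oligodendrocyte score over the 25 libraries and within both trapidil arms. In the levodopa arm replicate 2 is highest on both axes. Replicate 5 of that arm has its lowest score (0.156) and 11.3 CPM, and replicate 3 has a score of 1.21 and 8.59 CPM. In the Nos1 and Zic4 panels levodopa replicate 2 is 1 point far from the other 24.

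The genes most like 3 of the members are given as a description, by Pearson r of arm-centred log2 CPM over 25 libraries among all genes tested. For Chat they included Tdrd7 (0.681), Spice1 (0.664), Traf1 (0.648) and Dnph1 (0.643). For Pvalb they were Limk1 (0.903), Scarb1 (0.892), Slc6a8 (0.890), Agt (0.882) and Clec2l (0.875), and these 5 lay between 0.818 and 0.869 without the 2 libraries named above. For Sst they were Rnf207 (0.876), Ilkap (0.874), Dtx3 (0.872), Flot1 (0.871) and Phf1 (0.857), which ranged from 0.655 to 0.782 without them. None of the genes named here is a member.

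Other genes of cholinergic cells and acetylcholine breakdown were read from a list of 15, of which 15 were tested. At 15 mg/kg 2 were called lower and 0 higher with edgeR, with a list median of -0.09, where 1% of all genes were called lower and 0.304% higher. Prima1, whose protein anchors acetylcholinesterase in the membrane, stood at 82.4 ± 5.02 CPM with levodopa (SD, n = 5) and 70.5 ± 3.70 CPM at 15 mg/kg (SD, n = 10). Its level fell by 0.23 ± 0.05 in log2 units (adjusted p = 0.038, edgeR). Bche, for butyrylcholinesterase, stood at 15.7 ± 6.25 CPM with levodopa (SD, n = 5) and 9.95 ± 0.933 CPM at 15 mg/kg (SD, n = 10). It fell by 0.65 ± 0.16 in log2 units (adjusted p = 0.0437, edgeR), and levodopa replicate 2 held its highest value, 26.5 CPM. Without that library both calls ended, at -0.21 for Prima1 and -0.38 for Bche. The Prima1 call ended as well when levodopa 1, 3 or 5 was left out, or 1 library from 1, 2, 3, 6, 7, 8, 9 and 10 at 15 mg/kg, with values of -0.24 to -0.20. The Bche call ended when levodopa 3 was left out, or 7.5 mg/kg library 8 or 10, or 1 library from 1, 2, 3, 5, 6, 7, 8, 9 and 10 at 15 mg/kg, with values of -0.69 to -0.63. Both calls also ended with no low-count filter, at -0.22 for Prima1 and -0.65 for Bche, and with the replicate block, at -0.21 and -0.75. With the cortical score they ended at -0.22 and -0.62, with the extra-striatal score at -0.23 and -0.38, and with the oligodendrocyte score at -0.14 and -0.39. The fold of Bche was thus smaller without levodopa replicate 2, with the extra-striatal score and with the oligodendrocyte score. That of Prima1 was smaller with the oligodendrocyte score. The other settings given here left both near their values. At 7.5 mg/kg 0 of 15 were called with edgeR and 4 were lower at an unadjusted p below 0.05 (all 14142 genes: 939 lower, 11.7% in either direction). Isl1, another cholinergic fate gene, was at 0.11 ± 0.11 and 0.05 ± 0.11, and Ache, acetylcholinesterase itself, was at -0.06 ± 0.11 and -0.15 ± 0.11 (edgeR adjusted p from 0.493 to 0.861).

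Of 14 acetylcholine receptor genes 12 were tested and 0 were called with edgeR in any comparison. Before adjustment, 2 were higher and 1 was lower at 15 mg/kg with p below 0.05, where 19.5% of all genes were. Chrna7, a nicotinic receptor subunit, had the lowest p there (0.42 ± 0.15, adjusted p = 0.12, edgeR). Of 18 further GABA interneuron genes 17 were tested and 0 were called with edgeR, with 2 higher and 2 lower before adjustment (p below 0.05) at 15 mg/kg, beside the same 19.5% of all genes. Lhx6, a fate gene of Pvalb and Sst interneurons, was at 0.02 ± 0.15 and -0.0017 ± 0.15 at the lower and higher dose. Cck, a peptide gene shared with cortical neurons, came nearest at 15 mg/kg, at -1.02 ± 0.30 (adjusted p = 0.0678, edgeR). Its level was 45.04 ± 19.7 CPM with levodopa (SD, n = 5), and 22.2 ± 7.67 CPM was measured at the higher dose (SD, n = 10). The highest Cck in the levodopa arm was in replicate 5 (72.9 CPM, arm median 42.2 CPM). At 7.5 mg/kg it was in replicate 1 (59.6 CPM). Both are among the libraries with raised cortical sums, and the part of these in the Cck values was not tested.

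Markers of other cell groups were read from the same fit at 15 mg/kg. With edgeR 5 of 8 oligodendrocyte genes (median -0.60), 1 of 3 endothelial genes and 2 of 5 extra-striatal genes were called lower, where 1% of all genes were. Of 4 choroid plexus genes, Ttr was called lower (-5.11 ± 1.09, adjusted p = 0.0217, edgeR), while Kl, Folr1 and Clic6 were at 0.60, 1.13 and 1.18 and were not called (list median 0.86). Ttr was at 23.4 CPM in levodopa replicate 2, against a median of 0.298 CPM in that arm. The called extra-striatal genes, Slc17a6 and Ngfr, and all 3 endothelial genes were also highest in that library. Without levodopa replicate 2 and the 7.5 mg/kg replicate 1 the Ngfr call ended, at -1.22. Both the Slc17a6 and the Ngfr call ended with the cortical score, at -3.52 and -1.57. They also ended with the extra-striatal score (-1.20 and -1.08), the oligodendrocyte score (-0.60 and -0.70) and the replicate block (-2.61 and -1.68). With limma-voom the Slc17a6 call ended, at -1.36. No fit of Ttr or of the endothelial genes without levodopa replicate 2 is given here. Of 3 ependymal and 2 cortical genes tested 0 were called, with 2 ependymal genes higher and both cortical genes lower before adjustment (p below 0.05). Their part in the member values, beyond the fits with scores given above, was not tested.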

How the data were processed

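Polyadenylated RNA of 25 striatal libraries was sequenced. The deposited values are raw read counts per gene symbol, which the authors made with FastQC, STAR and HTSeq on Rnor_6.0, per the submitters' processing notes. Versions, annotation and strand setting are not given in the sources used here, so reads of a gene and of an antisense or overlapping neighbour cannot be told apart. Titles gave the arms. Separate animals are described, though not library by library, so p-values measure the spread between these libraries. No batch is given. No 2 libraries of an arm agreed within sampling noise (lowest chi-square per degree of freedom 4.83).

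Genes were kept by filterByExpr (14142), scaled by TMM and tested with edgeR 4.0.16 (glmQLFit, glmQLFTest; limma 3.58.1, DESeq2 1.42.0, R 4.3.3) over all 25 libraries with arm as factor. Tests were two-sided, Benjamini-Hochberg adjusted over the 14142 genes, at a threshold of 0.05. Standard errors were derived from each log2 fold change and its F statistic. Correlations used log2(CPM + 2) with arm means subtracted and 100000 permutations within arms, two-sided, with adjustment over each family. A library counted as lower or higher by its side of the reference arm's mean. On simulated data for 15 mg/kg against levodopa (14050 genes), the same steps recovered 67.2% of genes set to 1.5-fold, 83.3% of those set to 2-fold and 98.4% of those at 4-fold, and 6 of 169 calls were false. The changed genes were drawn at random from all tested genes, so these shares do not give the recovery for members with few reads or a wide spread. Intervals and floors cover counting error or the fit only.

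The members, the 12 context lists and the tests were chosen with earlier results of these data known, and the correlations with marker scores were added after values were seen. Named were all members, the called genes of each list or up to 2 with the smallest p, and the 5 genes most like Chat, Pvalb and Sst, of which 1 for Chat is not reported here; Isl1, Ache and Lhx6 were named after their values were seen. Alternatives were the normalization, filter, threshold, tool, libraries in the fit, marker scores as covariates, the replicate block and each library left out.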

Additional observations from a re-analysis of the deposited data

Results flagged for a closer look

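Among 24 sets of values (8 members in 3 arms), 2 held a library far from the others of its arm by Dixon's test; chance alone gives about 5% of sets. Sst in the 7.5 mg/kg replicate 1 was at 74.3 CPM (810 reads), and the next lowest library of that arm was at 145 CPM. Without that library the log2 fold change of Sst at 7.5 mg/kg was -0.11, against -0.19 with it. Nos1 in levodopa replicate 2 was at 46.0 CPM (746 reads), and the next lowest levodopa animal was at 76.7 CPM. The 7.5 mg/kg replicate 1 also had the highest cortical marker sum (55.4 CPM). Levodopa replicate 5, with a cortical sum of 42.8 CPM, had the highest Sst of its arm (183 CPM). The 7.5 mg/kg replicate 6, with a cortical sum of 33.9 CPM, had Sst at 158 CPM. The part of cortical content in these Sst values was not tested beyond the fit with the cortical score and the correlation that follows. The cortical score and Sst had r = -0.553 over 25 libraries (permutation adjusted p = 0.239; rho = -0.298, adjusted p = 0.623), -0.115 without the 2 libraries of most distant score, and -0.795 and -0.340 within the 7.5 and 15 mg/kg arms. Levodopa replicate 2 had the lowest spiny projection neuron sum (8874 CPM). That score and Nos1 had r = 0.586 (permutation adjusted p = 0.367; rho = 0.133, adjusted p = 0.831), 0.133 without the 2 libraries of most distant score, and -0.350 and -0.157 within the 7.5 and 15 mg/kg arms.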

How the results depend on the processing

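For the 8 members, 376 log2 fold changes under alternatives other than leaving out 1 library gave 357 with the same direction and side of the threshold, 2 newly past it and 17 with the other sign. Of 800 values without 1 library, 789 kept both and 11 changed sign. The 2 newly past it made the count of called members 1 instead of 0: Zic4 against both doses at a threshold of 0.10, and Pvalb at 15 mg/kg with only the arms of the contrast. Values moved more than calls did. Over all alternatives, the log2 fold change at 7.5 mg/kg ran from -0.20 to -0.11 for Chat, -0.18 to -0.055 for Slc5a7, -0.28 to -0.13 for Slc18a3, -0.37 to -0.024 for Lhx8, -0.77 to -0.30 for Zic4, -0.49 to 0.12 for Pvalb, -0.25 to -0.11 for Sst and -0.21 to -0.030 for Nos1. At 15 mg/kg it ran from -0.085 to 0.0032 for Chat, -0.14 to 0.050 for Slc5a7, -0.12 to 0.081 for Slc18a3, -0.11 to 0.19 for Lhx8, -0.70 to -0.22 for Zic4, -0.80 to 0.14 for Pvalb, -0.23 to -0.080 for Sst and -0.29 to -0.052 for Nos1. Signs changed as follows. At 15 mg/kg Slc5a7 was at -0.025 with the cortical score, -0.00071 with the extra-striatal score, -0.14 with the oligodendrocyte score and -0.020 with limma-voom, and Lhx8 was at -0.060 with the cortical score. With the oligodendrocyte score Pvalb was at 0.12, 0.14, 0.025 and 0.13 (7.5 mg/kg, 15 mg/kg, between doses, both doses) and Slc18a3 at 0.081 at 15 mg/kg. Lhx8 against both doses was at 0.021 with the extra-striatal score, 0.085 without levodopa 2 and 7.5 mg/kg 1, and 0.066 with limma-voom, and Sst between doses was at -9.55e-05 without those libraries and -0.011 with limma-voom. Leaving out 1 library, ranges that crossed 0 were -0.11 to 0.19 for Lhx8, -0.016 to 0.050 for Slc5a7 and -0.085 to 0.0032 for Chat at 15 mg/kg, -0.24 to 0.067 for Lhx8 against both doses and -0.042 to 0.0060 for Nos1 between doses.

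Over all genes, the calls at 7.5 mg/kg, at 15 mg/kg, between doses and against both doses were 4, 185, 4 and 114. Without 1 library they ran from 1 to 70, 9 to 894, 4 to 8 and 19 to 624, and the members called remained at 0. Without levodopa 2 and 7.5 mg/kg 1 they were 27, 76, 9 and 65. They were 102, 715, 13 and 563 with limma-voom, and 54 (7.5 mg/kg), 627 (15 mg/kg) and 426 (both doses) with DESeq2. In that order they were 11, 862 and 493 at a threshold of 0.10, 9, 7 and 38 with the cortical score and 7, 23 and 17 with the extra-striatal score. With the oligodendrocyte score they were 8 at 15 mg/kg and 5 against both doses, with only the arms of the contrast 1 and 448 at the 2 doses, and with no low-count filter 7 at 7.5 mg/kg. The cause of these shifts was not tested.

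Replicate numbers in the labels were not used to pair the libraries in the main fit. Of 20 same-numbered pairs from different arms 8 correlated over 0.1 after subtraction of arm means. Their median was 0.061, against 0.016 for other pairs of libraries from different arms, and this difference was not tested. With the replicate block 0 genes were called at 7.5 mg/kg, 0 at 15 mg/kg and 6 against both doses, members called were 0, and at 15 mg/kg Slc5a7 was at -0.016 and Lhx8 at -0.034.

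Pairs of members past the threshold numbered 3 instead of 1 with no subtraction of arm means. Signs then changed for Chat with Zic4 (0.101), Slc18a3 with Sst (0.123) and Zic4 with Sst (0.151). Without levodopa 2 and 7.5 mg/kg 1, signs changed for Chat with Pvalb (0.0288), Slc5a7 with Sst (-0.415), Slc18a3 with Sst (0.327), Lhx8 with Zic4 (-0.0706), Zic4 with Nos1 (0.237), Pvalb with Sst (0.266) and Sst with Nos1 (-0.0923).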

Other observations

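Receptors for the interneuron peptides and the targets of nitric oxide were read from a list of 16 genes, of which 13 were tested and 0 were called with edgeR in any comparison. Before adjustment, 1 was higher and 3 were lower at 15 mg/kg with p below 0.05, where 19.5% of all genes were. Npy1r, a receptor of neuropeptide Y, averaged 8.57 ± 1.15 CPM in the levodopa arm (SD, n = 5). The lower dose gave 10.6 ± 1.32 CPM and the higher dose 11.1 ± 1.90 CPM (SD over 10 libraries). Its log2 fold changes were 0.31 ± 0.12 (adjusted p = 0.351, edgeR) and 0.37 ± 0.12 (adjusted p = 0.0928, edgeR). Sstr1, a somatostatin receptor, was at -0.82 ± 0.29 at 15 mg/kg (adjusted p = 0.122, edgeR). Of 6 genes for GABA synthesis and transport, which spiny projection neurons also express, 0 were called with edgeR, and before adjustment 1 was higher and 1 was lower at 15 mg/kg (p below 0.05; all genes 19.5%). Gad2, a GABA-synthesising enzyme, was at 0.23 ± 0.09 (adjusted p = 0.164, edgeR). The 9 spiny projection neuron markers had medians of 0.03 and 0.06 at the lower and higher dose, with 0 called by edgeR and 0 at an unadjusted p below 0.05.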
